A study of Mus musculus with 3 samples.

Results

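The genes described here are 50 nucleolar factors that build ribosomes, given as a list of gene symbols. The list was chosen with earlier results of these data known, so its counts and ranks below are descriptions only. Of the 50, 49 had at least 1 probe set (a group of short oligonucleotides that reports 1 transcript) assigned to that gene alone, and all 49 passed the filter on dim signal, out of 10341 genes tested. The member without such a probe set was Npm3, a histone chaperone, and it was not analysed here. Where a gene had several probe sets, the brightest by mean over the 3 arrays gave its value.

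RNA abundance was measured on 3 Affymetrix arrays. Each array held total RNA of splenic CD4 T cells with a memory phenotype, that is, helper T cells that look as if they have met antigen; sort purity was over 99%. All mice were BALB/c, fed for 10 weeks either a normal diet (ND, 1 array) or a high fat diet with 60 kcal% fat (HFD, 2 arrays). The labels do not say whether an array holds RNA of 1 mouse or of a pool, nor if different mice gave the HFD arrays, so every p-value here speaks of the spread among these samples only, and that spread may be technical. The values are linear intensities scaled to the same trimmed mean on every array, and differences are on a log2(intensity + 17.65) scale, on which 1 is a doubling.

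Ribosomes are assembled in the nucleolus, where a long precursor RNA is transcribed by RNA polymerase I, chemically modified and cut into the mature ribosomal RNAs while ribosomal proteins are added. Small nucleolar ribonucleoproteins (snoRNPs) guide the modifications, the small subunit processome folds and cuts the RNA of the small (40S) subunit, and a separate set of factors builds the large (60S) subunit. The pathway is known to be induced when resting T cells begin to grow, and many of its genes are known targets of the transcription factor MYC.

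The ND array differed broadly from the HFD pair, with 2117 genes called higher and 3015 called lower in HFD, and because ND is 1 array, the diet and the handling of that sample cannot be told apart. H2-Ea, an MHC class II gene that BALB/c mice carry and some other inbred strains lack, read 11.5 in ND and 536 and 602 in HFD, whereas its partner H2-Eb1 read 2604 in ND and 1566 and 1547 in HFD and H2-Aa read 7207 in ND and 3546 and 3664 in HFD. Whether the ND sample differed in strain from its label was not tested. T cell markers (7 of 8 measured) summed to 78618 in ND and 64105 and 62408 in HFD. Of these 7, 6 were called lower and 0 higher. Cd3d read 22919 in ND and 19833 and 19515 in HFD, and Cd4 911 in ND and 609 and 377 in HFD. Cd44, which marks memory T cells, read 9761 in ND and 5623 and 5700 in HFD. Cd5 went the other way, with 12992 in ND and 13960 and 13510 in HFD. The CD8 T cell genes, of which 1 of 2 was called higher, were Cd8a (99.0 in ND and 177 and 230.02 in HFD) and Cd8b1 (350 in ND and 404 and 485 in HFD). Summed macrophage markers (6 of 6) read 2129 in ND against 828 and 955, dendritic cell markers (5 of 6) 1568 against 699 and 765, and neutrophil markers (6 of 6) 170.1 against 590 and 670.4. The neutrophil difference came mostly from S100a8 (40.9 against 247 and 362) and S100a9 (5.85 against 183 and 131). Ngp read 76.1 against 96.2 and 69.1, and Camp, Elane and Ltf did not pass the filter. Of the 4 dendritic cell markers tested, 3 were called lower, with Siglech the brightest (956 against 338 and 407), and Zbtb46 was not called (135 against 137 and 113). B cell markers (5 of 6) summed to 1286 in ND against 2485 and 2566, a difference that came from Ms4a1 (56.8 against 1612 and 1837): of the 3 tested, 1 was called higher and 1 lower, the latter being Cd22 (939 against 605 and 504), and Cd79a and Pax5 did not pass the filter. The part of these shifts in the results was not tested.

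All 49 measured members were higher on both HFD arrays than on the ND array, and all 49 passed the test. The median member was 2.82-fold higher in HFD (log2 1.495), while the median of all genes lay slightly lower in HFD (log2 -0.15). The changes ranged from 1.42-fold for Bop1, a subunit of a large subunit assembly complex, to 5.74-fold for Nolc1, a chaperone of snoRNPs. Of the 49, 44 were at least 2-fold higher on both HFD arrays and 10 were at least 4-fold higher on both.

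These counts stand against a background in which 20.5% of all genes tested were called higher (limma, adjusted p below 0.05), 6.91% were called higher and at least 2-fold so, and 29.2% were called lower. Both HFD arrays lay above the ND array for 35.8% of all genes and below it for 54.7%. They lay at least 2-fold above it for 6.00%, and at least 4-fold above it for 1.10%. Ranked by their difference between the diets, 41 of the 49 members fell in the top 5% of all genes tested and 46 in the top 10%, and the lowest, Bop1, was at rank 1723 of 10341. The error comes from the pair of HFD arrays, and the lone ND array is taken to vary as they do. In these bulk samples more cells of a type and more RNA per cell cannot be told apart.

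**Figure D1:**
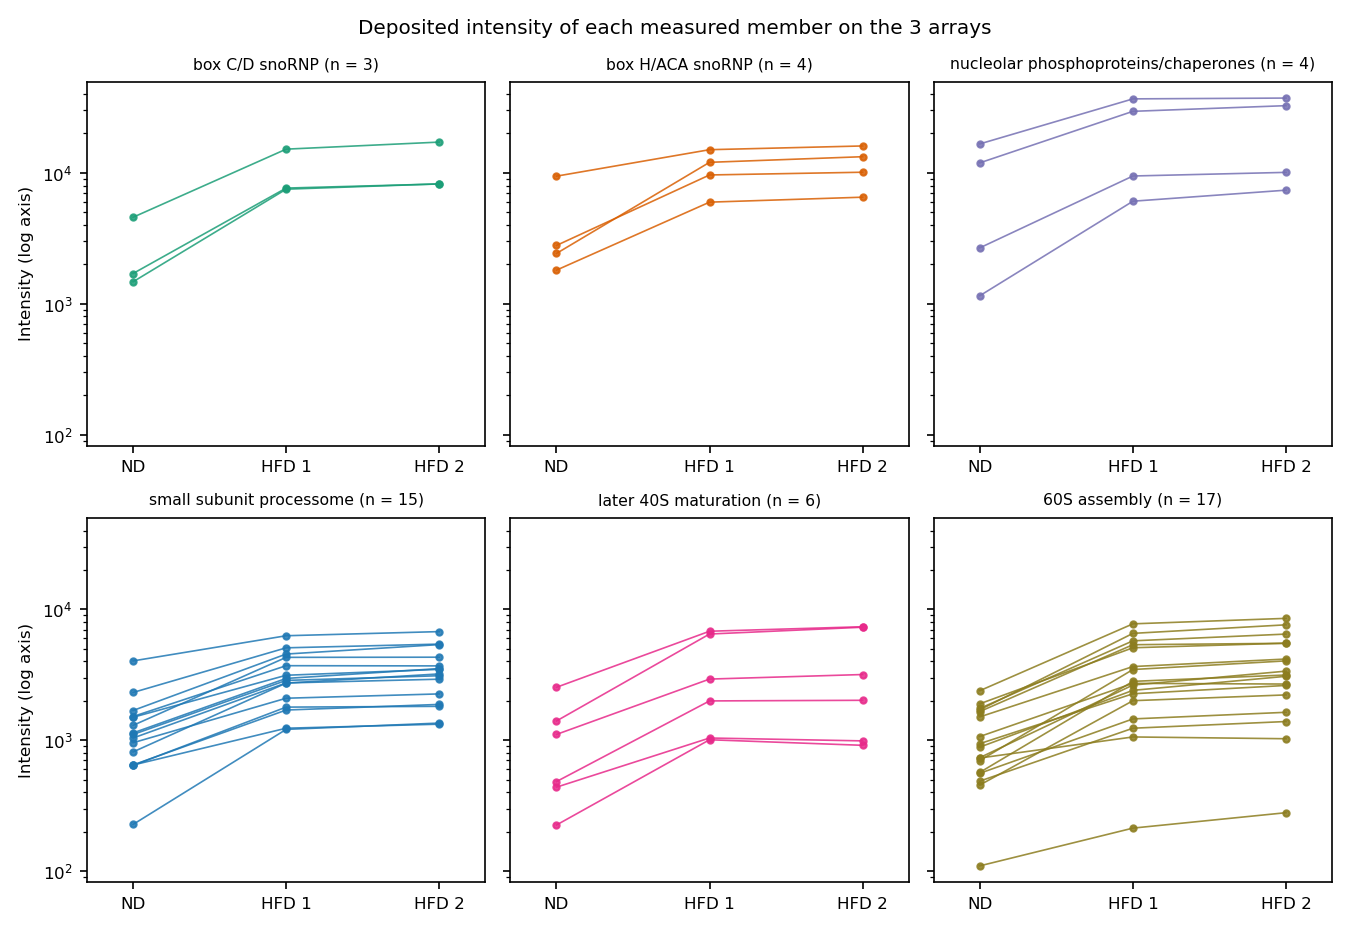
Intensity of each of the 49 measured members (1 point per array, log axis) on the ND array and both HFD arrays, in 6 panels by role, with lines joining the values of 1 gene. Every line climbs from ND to HFD 1, and the step from HFD 1 to HFD 2 is small.

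Intensity does not compare transcript levels between genes, since each probe set has its own brightness. Within the list, ND intensities ran from 109.6 for Nle1, a large subunit assembly factor, to 16653 for Npm1, the nucleolar chaperone nucleophosmin, so the members were spread widely over the measured range. Only 7 of the 49 read under 500 in ND. The rank of a member's ND intensity and the rank of its difference were barely related (Spearman rho -0.07 over 49 genes, a description that shares the ND array between both measures).

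The core proteins of box C/D snoRNPs, which guide methylation of ribosomal RNA, rose in 3 of 3 cases, by a median of log2 2.21. Nop58, 1 of the paired scaffold proteins, read 1471 in ND and 7504 and 8241 in HFD, a 5.30-fold rise (log2 2.40 ± 0.11 SE, adjusted p = 5.3e-09). Over the 10 alternatives the limma adjusted p of Nop58 ran from 3.2e-88 to 0.0067, so its size depends strongly on the processing. Nop56, the other scaffold protein, read 1701 in ND and 7654 and 8226 in HFD, 4.63-fold higher. Fbl, the methyltransferase fibrillarin, read 4578 in ND and 15182 and 17188 in HFD, 3.52-fold higher. The HFD arrays lay close together for each gene and far above the ND array, and the other probe sets of Nop56 (log2 2.18) and Fbl (1.72) gave almost the same differences.

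Box H/ACA snoRNPs, which convert uridine to pseudouridine, rose in 4 of 4 core proteins but not equally. Nhp2 read 2421 in ND and 12041 and 13292 in HFD, a 5.20-fold rise (log2 2.38 ± 0.10 SE, adjusted p = 3.1e-09, and 2.5e-110 to 0.0067 over the 10 alternatives), with log2 2.40 on its other probe set. Dkc1, the pseudouridine synthase dyskerin, read 2787 in ND and 9639.6 and 10114 in HFD (3.53-fold), and Gar1 read 1805 in ND and 5974 and 6519 in HFD (3.43-fold). Nop10, the smallest subunit, stood apart from its partners. It was already bright in ND at 9438 and read 15038 and 16060.2 in HFD, 1.65-fold higher. Its 95% interval (log2 0.54 to 0.90) lay below those of Gar1 (1.55 to 2.01), Dkc1 (1.61 to 2.02) and Nhp2 (2.17 to 2.59), and its other probe set read log2 0.92. These intervals hold the spread of the arrays only, not differences between probe sets of different genes. Whether brightness compressed the difference of Nop10 was not tested.

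Among the nucleolar phosphoproteins and chaperones, 4 of 4 measured genes rose. Nolc1, which escorts both kinds of snoRNP, had the largest difference of the whole list. It read 1151 in ND and 6073 and 7377 in HFD (log2 2.52 ± 0.12 SE, adjusted p = 1.4e-08, and 3.8e-90 to 0.0068 over the 10 alternatives). A dimmer probe set gave log2 2.56 and another, at 442 in ND, log2 0.96. Mybbp1a, a nucleolar protein that takes part in the control of RNA polymerase I, read 2673 in ND and 9466 and 10089.9 in HFD, 3.64-fold higher. The abundant proteins nucleolin and nucleophosmin rose less. Ncl read 11933 in ND and 29541 and 32639 in HFD (2.60-fold), and Npm1 read 16653 in ND and 36778 and 37306 in HFD (2.22-fold). Dimmer probe sets of Ncl that are far from the top of the intensity range read log2 1.06 to 1.72 against 1.38 on the brightest, and the other probe set of Npm1 read 1.47 against 1.15.

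**Figure D2:**
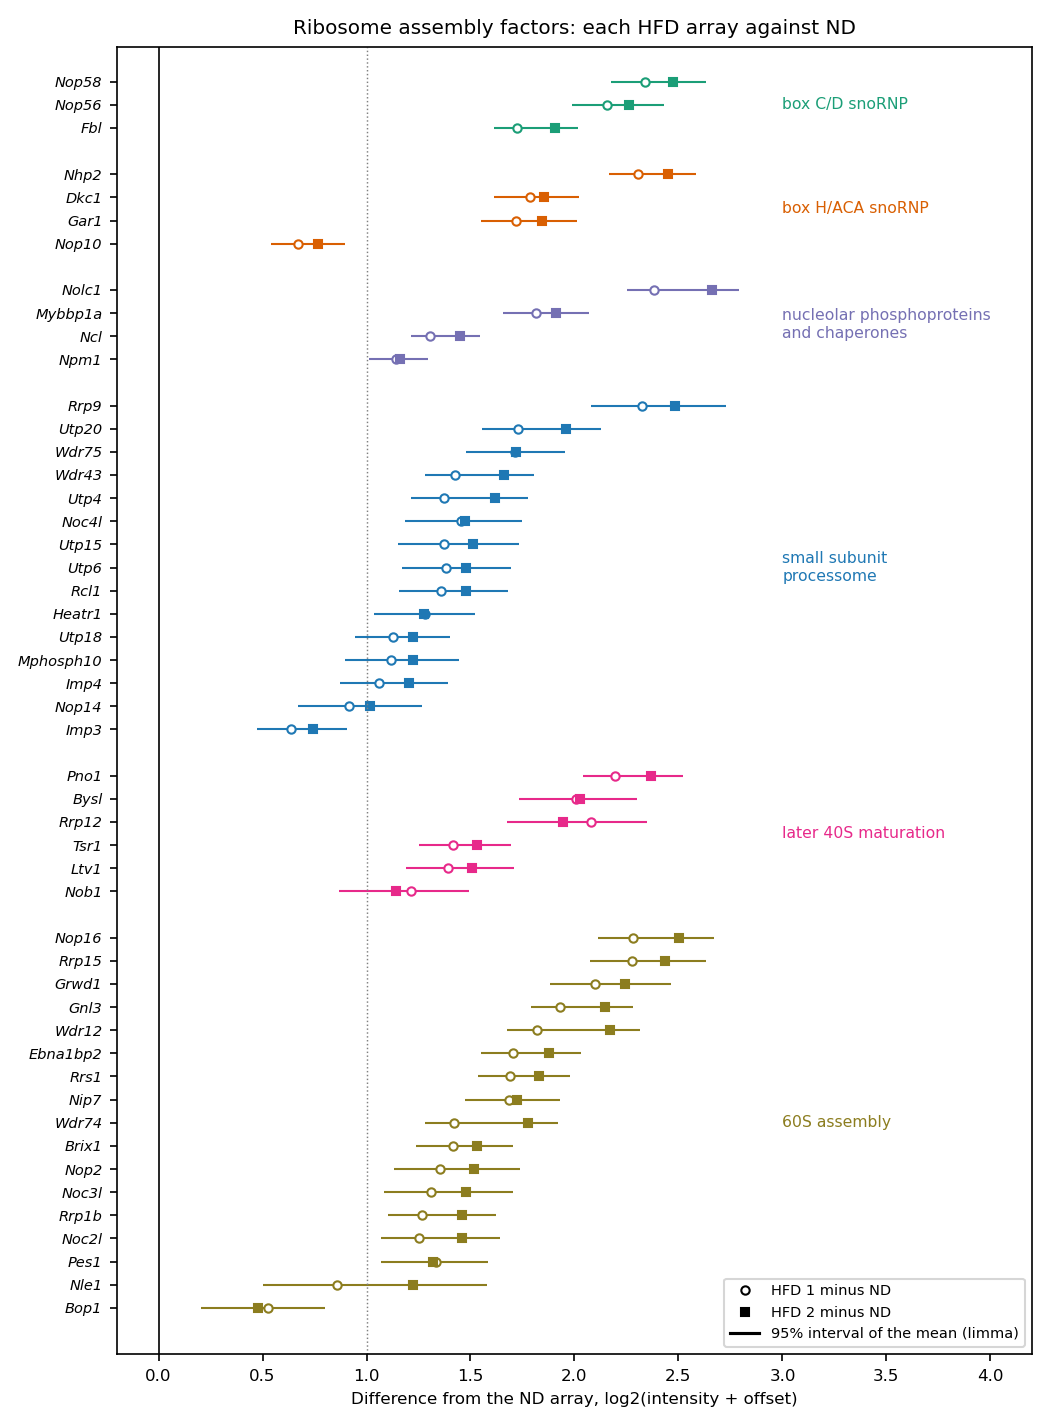
Difference from the ND array for each measured member (log2 of intensity plus offset), with open circles for HFD 1, filled squares for HFD 2 and bars for the 95% interval of their mean from limma, grouped by role. All intervals lie above 0, the lowest being that of Bop1, and the dotted line marks a doubling.

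The small subunit processome holds the U3 snoRNA and the factors that fold and cut the small subunit RNA. All 15 of its listed members rose, by a median of log2 1.43 and by 1.61 to 5.30-fold. Rrp9, a protein of the U3 snoRNP itself, read only 227 in ND and 1210.1 and 1352 in HFD (log2 2.41 ± 0.15 SE, adjusted p = 9.4e-08, and 4.6e-51 to 0.0067 over the 10 alternatives). Utp20, a very large repeat protein, read 814 in ND and 2732 and 3212 in HFD (3.58-fold). Wdr75 read 1299 in ND and 4298 and 4309.9 in HFD (3.28-fold), and Noc4l, the partner of Nop14, read 641 in ND and 1791 and 1815 in HFD (2.76-fold). The values of Wdr75 and Noc4l on both HFD arrays were nearly the same.

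Wdr75 belongs to the group of early processome proteins that also act with RNA polymerase I, and its companions rose too. Wdr43 rose 2.92-fold, Utp4 2.82-fold, Utp15 2.72-fold and Heatr1 2.43-fold. On the brightest probe sets, the Mphosph10 complex, which joins the U3 snoRNA to the precursor, rose less. Mphosph10 and Imp4 rose 2.25 and 2.19-fold, and Imp3 read 4037 in ND and 6288 and 6762 in HFD, 1.61-fold higher. Other probe sets read log2 0.18 against 1.17 for Mphosph10, 0.23 and 0.01 against 1.13 for Imp4 and 0.37 against 1.28 for Heatr1. Those of Utp15 and Wdr43 read 0.82 against 1.44 and 1.13 against 1.54. Rcl1 rose 2.67-fold and Nop14 1.95-fold.

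Utp6 and Utp18, of another processome subcomplex, rose on their brightest probe sets, but their probe sets disagreed. Utp6 read 1039 in ND and 2739 and 2927 in HFD (2.70-fold) on the brightest, while a second probe set of almost the same ND intensity read 1012 in ND and 989.9 and 1028 in HFD, and a dimmer one read log2 0.41. Utp18 read 2316 in ND and 5084 and 5428 in HFD (2.26-fold), but a dim probe set read 137 in ND and 111 and 104 in HFD. These were the only 2 of the members' probe sets past the filter whose difference had the opposite sign.

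Later maturation of the small subunit, as it leaves the nucleolus, was represented by 6 genes, all of which rose, by 2.27 to 4.86-fold. Pno1, which holds the pre-subunit until its last RNA cut, read 1402 in ND and 6481 and 7304 in HFD (log2 2.28 ± 0.11 SE, adjusted p = 1.2e-08, and 2.0e-76 to 0.0067 over the 10 alternatives). Nob1, the nuclease that makes that cut and partner of Pno1, rose 2.27-fold, from 438 to 1039.5 and 988. Bysl read 483 in ND and 1997 and 2019 in HFD (4.05-fold), although its other probe set gave log2 1.14 against 2.02. Rrp12, which serves export of the subunit, read 225 in ND and 1008 and 914 in HFD (4.03-fold), and was higher on HFD 1 than on HFD 2. Tsr1 read 2538 in ND and 6807 and 7368 in HFD (2.78-fold), and Ltv1, which like Tsr1 binds the pre-subunit, rose 2.73-fold.

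The 17 listed factors of the large subunit all rose, by a median of log2 1.60. Nop16 read 699 in ND and 3470.1 and 4039.7 in HFD (5.25-fold, log2 2.39 ± 0.13 SE, adjusted p = 2.8e-08, and 1.4e-73 to 0.0067 over the 10 alternatives). Rrp15 read 568 in ND and 2817 and 3151 in HFD (5.12-fold). Grwd1, a chaperone of a ribosomal protein, read 454 in ND and 2005 and 2219.7 in HFD (4.51-fold), and Gnl3, the GTPase nucleostemin, read 1709 in ND and 6555 and 7620.4 in HFD (4.10-fold). In each of these genes both HFD arrays lay far above the ND array on the probe set used. Other probe sets read log2 1.25 and 1.14 against 2.17 for Grwd1 and 0.73 against 2.39 for Nop16.

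The others of the large subunit group rose by less than 4-fold. Among them were Wdr12 (3.98-fold), described with its complex, Ebna1bp2 (3.46-fold), Rrs1, which helps to place the small RNA of the large subunit (3.38-fold), Nip7 (3.26-fold) and Wdr74 (3.03-fold). Brix1, the RNA methyltransferase Nop2, Noc3l, Rrp1b and Noc2l rose 2.56 to 2.77-fold. Nle1, a dim gene, read 109.6 in ND and 213 and 279 in HFD (2.06-fold, adjusted p = 0.0040), and its call ended with no filter on dim genes (adjusted p = 0.0643, and 7.8e-05 to 0.0643 over the 9 alternatives in which it was tested).

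Pes1, Bop1 and Wdr12 form 1 complex needed for large subunit RNA processing, and on their brightest probe sets they differed in size of change. Wdr12 read 736 in ND and 2641 and 3373 in HFD (3.98-fold, log2 1.99, 95% interval 1.67 to 2.31). Pes1 read 1067 in ND and 2719.9 and 2687 in HFD (2.51-fold, 1.07 to 1.58). Bop1 read 731 in ND and 1059 and 1026 in HFD (1.42-fold, 0.20 to 0.80, adjusted p = 0.0092). The 3 intervals do not overlap, but the other, dimmer probe sets read log2 0.30 for Wdr12, 0.70 for Pes1 and 0.28 for Bop1, so the order of Wdr12 and Pes1 turned with the probe set. The call of Bop1 ended when probe sets were averaged (adjusted p = 0.0546, and 7.0e-04 to 0.0546 over all 10 alternatives).

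Both HFD samples gave the same picture, with a small offset between them. HFD 2 read above HFD 1 for 44 of the 49 members, against 50.6% of all genes tested, by a median of log2 0.14. The exceptions were Heatr1, Rrp12, Nob1, Pes1 and Bop1. The median member lay log2 1.42 above ND on HFD 1 and 1.62 above it on HFD 2. The largest gap between the HFD arrays was log2 0.37, for Nle1, whose smaller difference from ND was log2 0.86.

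**Figure D3:**
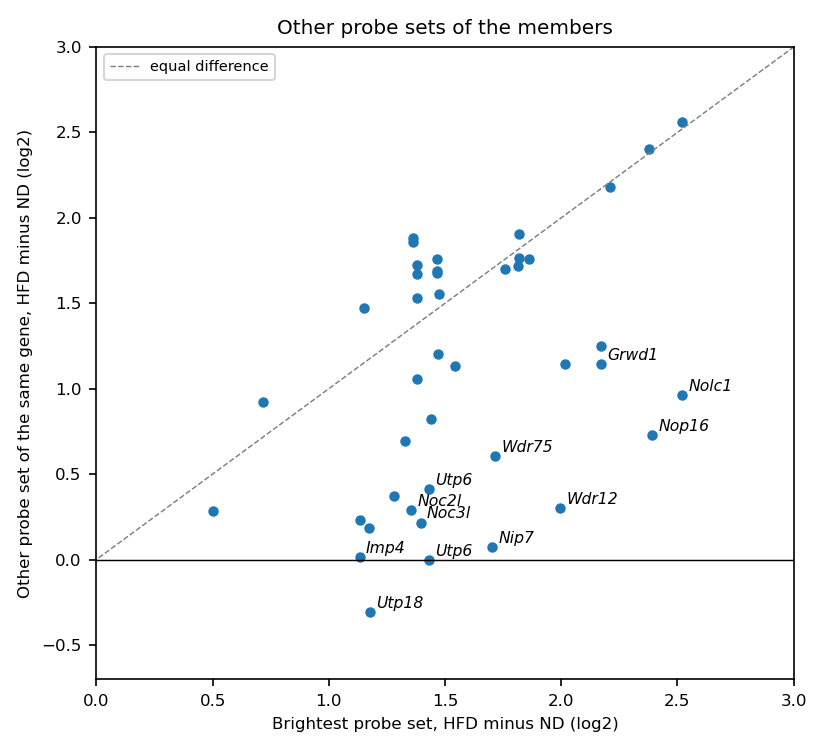
Difference between HFD and ND (log2) on each of the 42 other probe sets of the members past the filter, against that of the brightest probe set of the same gene. Points on the dashed line agree, names mark the 12 probe sets that lie more than 1 below it, and only those of Utp18 and Utp6 fall under 0.

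Other probe sets assigned to the same gene gave a further reading for 31 of the 49 genes. Whether they share sequence with the brightest probe set, or also bind other transcripts, was not tested. Of 91 member probe sets past the filter, 89 read higher in HFD. Among the 42 that were not the brightest, 28 showed a smaller difference than the brightest and 23 were at least 2-fold higher on both HFD arrays. The gap was wide for Wdr12 (log2 0.30 against 1.99), Nop16 (0.73 against 2.39) and Nip7 (0.07 against 1.70), and 12 probe sets lay more than log2 1 below the brightest. Among these were also Wdr75 (0.61 against 1.72), Noc2l (0.29 against 1.36), Noc3l (0.22 against 1.396), Imp4 (0.01 against 1.13) and Grwd1 (1.14 against 2.17), of which the last read 647 in ND and 1435 and 1469 in HFD on a probe set brighter in ND than the one used. By contrast, both readings of Nhp2, Nop56, Fbl, Rrs1 and Mybbp1a differed by at most 0.10. The choice by mean over the 3 arrays, of which 2 are HFD, favours probe sets bright in HFD. With probe sets chosen on the ND array, 49 members were called and 43 were at least 2-fold higher on both HFD arrays. Averaging the probe sets of each gene left 48 members called and 35 at least 2-fold higher on both HFD arrays.

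The promoters of the members are shown for the letters CACGTG (an E-box, read alike on both strands), which MYC binds. Myc itself read 777 in ND and 4629 and 5008 in HFD (6.08-fold, limma adjusted p = 5.8e-09). Whether MYC had a part in the members' differences was not tested. RefSeq promoter windows of build GRCm38.p6, running from 250 bases before to 50 after the gene start, were at hand for 44 of the 50 members. CACGTG occurred in 13 of them (29.5%), against 12.1% of the 8441 genes tested that had a window and 8.09% of all 27025 genes with one. Below are the 8 members with CACGTG between 130 bases before and 30 after the start, and Nolc1, which rose most and had none; capitals mark CACGTG and CCGGAAG (or CTTCCGG, its other strand), the core letters bound by ETS family factors, and the letters of the 2 motifs cannot overlap.
Nop2, chr6:125131753-125131912 (plus strand): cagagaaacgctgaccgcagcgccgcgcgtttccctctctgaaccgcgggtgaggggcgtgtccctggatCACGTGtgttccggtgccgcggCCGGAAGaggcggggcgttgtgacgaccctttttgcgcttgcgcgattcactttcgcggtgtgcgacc
Imp4, chr1:34439699-34439858 (plus strand): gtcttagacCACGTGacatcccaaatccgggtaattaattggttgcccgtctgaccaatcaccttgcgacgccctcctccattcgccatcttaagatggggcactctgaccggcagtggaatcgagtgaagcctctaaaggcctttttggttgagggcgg
Utp18, chr11:93885737-93885896 (minus strand): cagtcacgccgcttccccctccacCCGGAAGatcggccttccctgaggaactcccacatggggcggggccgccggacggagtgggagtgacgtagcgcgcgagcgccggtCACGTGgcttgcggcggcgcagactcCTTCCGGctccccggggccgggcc
Pes1, chr11:3963845-3964004 (plus strand): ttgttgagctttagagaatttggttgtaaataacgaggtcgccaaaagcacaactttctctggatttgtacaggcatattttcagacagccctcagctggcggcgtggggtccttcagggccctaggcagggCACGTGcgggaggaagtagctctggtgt
Utp4, chr8:106893510-106893669 (plus strand): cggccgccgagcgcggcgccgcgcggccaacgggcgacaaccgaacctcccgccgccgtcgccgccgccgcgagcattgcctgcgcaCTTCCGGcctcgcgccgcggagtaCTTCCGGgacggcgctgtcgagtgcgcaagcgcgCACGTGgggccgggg
Wdr43, chr17:71616085-71616244 (plus strand): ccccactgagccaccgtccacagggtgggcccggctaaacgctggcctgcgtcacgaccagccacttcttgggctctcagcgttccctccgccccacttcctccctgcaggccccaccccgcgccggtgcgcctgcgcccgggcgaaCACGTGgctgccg
Nle1, chr11:82908366-82908525 (minus strand): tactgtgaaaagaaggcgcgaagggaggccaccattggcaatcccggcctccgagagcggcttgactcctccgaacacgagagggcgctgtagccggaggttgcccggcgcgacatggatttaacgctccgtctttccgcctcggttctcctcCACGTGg
Tsr1, chr11:74897950-74898109 (plus strand): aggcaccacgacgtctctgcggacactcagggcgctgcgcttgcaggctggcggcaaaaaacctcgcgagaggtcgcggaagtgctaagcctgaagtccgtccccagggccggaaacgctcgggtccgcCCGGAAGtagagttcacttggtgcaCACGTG
Nolc1, chr19:46075717-46075876 (plus strand): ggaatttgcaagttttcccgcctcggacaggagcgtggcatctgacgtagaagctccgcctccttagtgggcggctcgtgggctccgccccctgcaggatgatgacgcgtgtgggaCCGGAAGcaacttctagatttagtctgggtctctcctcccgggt

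The E-boxes of the members lay mostly just past the gene start. In Nop2, Imp4 and Utp18 the match began 60, 121 and 20 bases before the start, and in the other 10 genes (Pes1, Utp4, Wdr43, Nle1, Tsr1, Ltv1, Grwd1, Pno1, Utp20 and Mybbp1a) it began within 3 to 41 bases from the start, the start base being 1. The 50 bases after the start thus held CACGTG in 22.7% of members, against 1.97% of the genes tested, 3.55% of those called higher and 1.41% of those called lower. That window was added after the data were seen, so its shares are descriptions only. The 250 bases before the start held it in 6.82% of members and 10.2% of genes tested. The median difference was log2 1.47 over the 13 members with CACGTG in the window and 1.65 over the 30 other measured members with a window.

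The ETS letters CCGGAAG occurred on either strand in 18 of the 44 member windows (40.9%), among them Nolc1, Nhp2 and Gar1, against 22.0% of genes tested. The palindromic motif of the factor NRF1 occurred in 1 (Pno1; 2.27% against 2.57%). The windows were not matched for base composition, and a match of letters is not a bound site.

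The rest of the pathway was taken from lists of other assembly factors, RNA polymerase I, the RNA exosome and ribosomal proteins. These lists too were chosen with earlier results known. In the counts of these lists, rose and fell mean called higher or lower by limma. Of all genes tested, 20.5% were called higher and 29.2% lower. Of 38 other small subunit factors, 29 rose and 1 fell (median log2 0.87), and those with the largest smaller difference over both HFD arrays were the processome proteins Tbl3 (3.05-fold) and Pwp2 (2.51-fold) and the RNA acetyltransferase Nat10 (2.53-fold), while the kinase gene Riok3 fell by 0.33 on the log2 scale, from 4339 to 3494 and 3406. Of 50 other large subunit factors, 42 rose and 0 fell (median log2 0.90), with Ppan (4.45-fold), Pa2g4 (4.44-fold) and Rpf2, the partner of Rrs1 (3.83-fold), ahead. Ddx24 had the largest drop of this list, from 1837 in ND to 1519 and 1636 in HFD (log2 -0.22). Zfp622 read 10678 in ND and 10072 and 10013 in HFD, and Nop53 10961 in ND and 10433 and 10094. None of these genes passed the test.

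RNA polymerase I, which makes the precursor RNA, and the exosome, which trims it, also leaned upward. The counts below stand against 20.5% of all genes tested called higher and 29.2% called lower. Of 15 polymerase I subunits and initiation factors, 10 rose and 1 fell (median log2 0.86): the second-largest subunit gene Polr1b rose 3.05-fold (499 to 1426 and 1703), Cd3eap 2.36-fold and Taf1d 2.31-fold, and Taf1b fell by 0.42 on the log2 scale. Of 13 exosome genes tested, 10 rose and 0 fell (median log2 0.64), with the nuclease Dis3 up 3.46-fold (879 to 2831 and 3360) and Exosc2 up 2.67-fold.

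The ribosomal proteins themselves, which these factors assemble, differed far less. Of 43 cytosolic ribosomal protein genes tested, out of 79 in the list, 21 rose (48.8%) and 2 fell (4.65%). Among all genes tested, these shares were 20.5% and 29.2%. The median was log2 0.17, and 1 gene, Rps25, was at least 2-fold higher on both HFD arrays (2.64-fold, 1659 to 4245 and 4571). Rps27 fell by 1.58 on the log2 scale (1818 to 622 and 570) and Rps6 by 0.50 (2479 to 1848 and 1657). The median ND intensity of the ribosomal protein genes was 30248, against 1151 for the members. Whether that brightness compressed their differences was not tested. The probe sets of Rps25, Rps27 and Rps6 were far dimmer than that median, and whether they report these transcripts well was not tested.

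**Figure D4:**
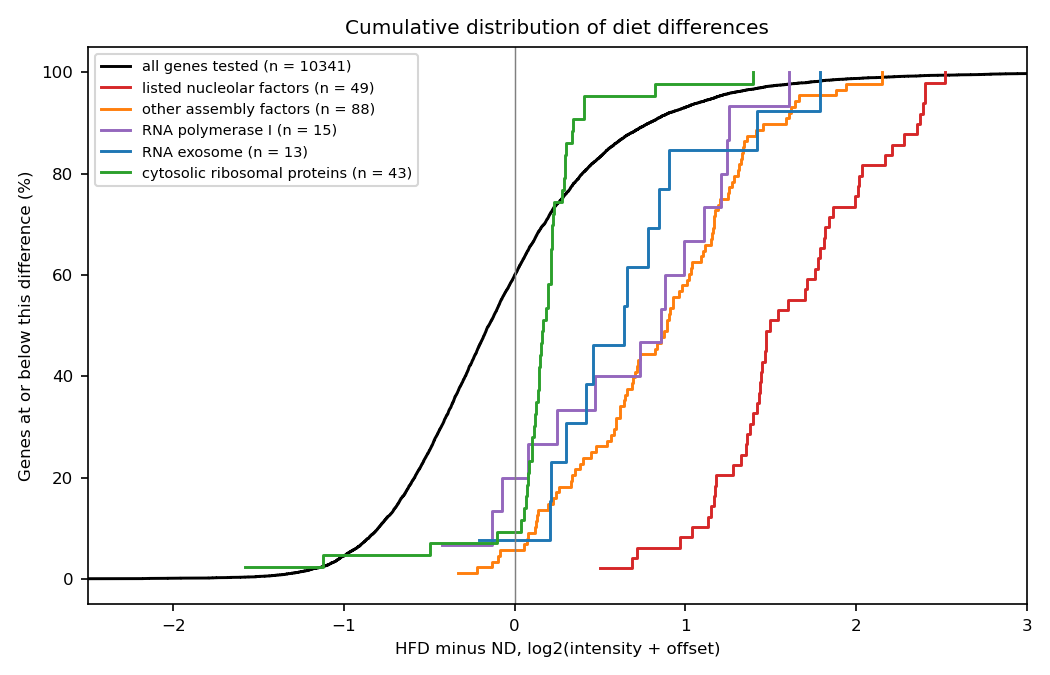
Cumulative share of genes (%) by difference between HFD and ND (log2 of intensity plus offset) for all genes tested, the listed nucleolar factors, other assembly factors of both subunits, RNA polymerase I, the RNA exosome and cytosolic ribosomal proteins. The curve of the nucleolar factors lies furthest right, with no gene below log2 0.50, and that of the ribosomal proteins is steep around log2 0.17.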

How the data were processed

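Total RNA of 3 sorted samples was hybridised to Affymetrix arrays. The deposited values are linear intensity per probe set; GCOS is the software named per the submitters' processing notes, and for its algorithm, version and background correction the entry is: not given in the sources used here. Each array's mean after trimming 2% at each end was 500.003. The 64 control probe sets were left out, and of the other 45037, the 34945 with 1 gene symbol in the platform annotation were named. All 95 member probe sets carried the same symbol in RefSeq by Entrez identifier.

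The offset in log2(intensity + 17.65) is the 25th percentile of all values. Genes with a mean above 71.4, the median over probe sets, were kept, with the brightest probe set per gene. The diets were tested against each other, two-sided, with lmFit and trended eBayes from limma 3.58.1 (R 4.3.3); p-values were adjusted by Benjamini and Hochberg's method across the 10341 genes. The residual has 1 degree of freedom, moderated with 11.69 prior degrees. The fit was run on simulated data that gave the ND array the same spread as the HFD arrays. That assumption was therefore not tested. The number of arrays limits the precision.

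Members and lists were chosen with earlier results of these data known. Arrays are given in full for up to 4 members of each role with the largest smaller difference over both HFD arrays and for members with a probe set of opposite sign. Up to 3 genes per direction were named from other lists. The members described beyond that rule were chosen after their values were seen. Alternatives covered normalization, centring, offset, filter, probe set choice, variance model, threshold and array left out. Python 3.11.15 (pandas 2.3.3, numpy 2.4.6) made the tables and matplotlib 3.10.9 the figures.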

Additional observations from a re-analysis of the deposited data

How the results depend on the processing

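All 300 values of the 25 members chosen by the naming rule stayed above 0 and kept their call, where tested, under the alternatives. Most of these members were chosen for large differences in the main fit, so this was largely fixed in advance. A change of filter or variance model alone leaves a member's difference as it was. Nle1 and Bop1, whose calls ended in 1 setting each, are not among the 25. Of the 49 measured members, 48 or 49 were called higher and 0 lower in each of the 10 refits. In the main fit, 49 were called at a limma adjusted p under 0.01. With no variance trend the highest limma adjusted p of a member was 0.0429, so the stricter count does not hold in every refit. The members' median lay between log2 1.46 (offset at the median of all values) and 1.56 (arrays centred), and the 2-fold count between 35 (probe sets averaged) and 44. Centring moved the split of all genes to 2413 higher and 2701 lower. Without HFD replicate 1 the members' median was 1.62 and 46 were at least 2-fold higher, and without HFD replicate 2 these were 1.42 and 44, both without a test since no residual degree of freedom is left. No paired analysis was possible because ND has 1 array. The ND array could not be left out. The choice of probe set by ND intensity and the motif window after the start were added after the data were seen. With only the 250 bases before the start, CACGTG was found in 3 members and the NRF1 motif in 0, and with only the 50 bases after it CCGGAAG was found in 7. Detection calls were not used here, so dim values such as those of Nle1 cannot be told from background.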
